A study of Homo sapiens with 9 samples.

Results

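Nonsense-mediated decay is carried out by proteins whose own messages were followed here through 2 RNA immunoprecipitations (RIPs). The 9 messages were those of UPF1, UPF2, UPF3A, UPF3B, SMG1, SMG5, SMG6, SMG8 and SMG9, taken by gene symbol from both deposited tables. All 9 were found among the 36020 genes for which reads per library were obtained, out of 51105 genes present in both tables, and all 9 passed the filter on low levels.

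Wildtype HEK293T cells, a standard laboratory line of embryonic kidney origin that carries the large T antigen, were crosslinked with 0.1% formaldehyde for 10 min. Total cell lysate was used directly as input, with no immunoprecipitation (Input, n = 3), or precipitated with an antibody against the nuclear poly(A) binding protein (PABPN RIP, n = 3) or against the cytoplasmic poly(A) binding protein (PABPC RIP, n = 3). The 9 libraries, from 3 independent biological replicates, were depleted of ribosomal RNA, and the question was which RNAs each protein holds at steady state. All groups share the cell line and the crosslinking, the lysate of a replicate was divided between the antibodies, and matched IgG precipitations gave too little RNA for a library, so background binding has no library of its own. Libraries are called A, B and C within a group because which of them is which replicate was not determined; the same letter in different groups does not mark the same lysate. They held 34.8 to 47.0 M reads on genes. In Input, PAX2, LHX1 and CKB, genes that HEK293T cells express, were read at 250 to 17423 reads a library. PTPRC, MYH7, KRT5, ALB and PECAM1, which mark blood, muscle, squamous epithelium, liver and endothelium, had 0 to 16 reads.

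Nonsense-mediated decay removes messages on which translation stops too early, and also tunes many normal messages with long 3′ untranslated regions or upstream reading frames. UPF1, an RNA helicase, is phosphorylated by the kinase SMG1, which is held by SMG8 and SMG9. UPF2 and UPF3B join UPF1 to the exon junction complex, and phosphorylated UPF1 recruits the nuclease SMG6 or the adaptor SMG5. Several of these factors are described as targets of the pathway they serve, a feedback that holds its activity steady. Newly made messages carry PABPN on their poly(A) tails, which PABPC covers in the cytoplasm.

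Because both antibodies recognise proteins of the poly(A) tail, the last 30 bases of each message are shown, from the GENCODE release 44 canonical transcript on hg38. Capitals mark the polyadenylation signal AATAAA where it occurs.
UPF1 (chr19:18868201-18868230, plus strand): accaaatattAATAAAcagttttgacttca
UPF2 (chr10:11920022-11920051, minus strand): gccgatgctgcAATAAAgtgttgtaattta
UPF3A (chr13:114305788-114305817, plus strand): AATAAAaattttgttaaagaagtactgaaa
UPF3B (chrX:119834022-119834051, minus strand): cAATAAAtagtaacagcattcaagtgtgaa
SMG1 (chr16:18804860-18804889, minus strand): ttcagaaAATAAAggttcagtctcaaaaga
SMG5 (chr1:156249224-156249253, minus strand): agcatcacttAATAAAccccccaagcccaa
SMG6 (chr17:2059843-2059872, minus strand): tccttAATAAAtttttagttatgaaacata
SMG8 (chr17:59215201-59215230, plus strand): ctAATAAAgattggttgttctagaaaagaa
SMG9 (chr19:43727983-43728012, minus strand): aatgagccaatacatactctttctccttaa
The signal lay 13 to 24 bases before the annotated end in 8 of the 9 messages. The SMG9 window held neither AATAAA nor ATTAAA, searched on the transcript strand. Among 20046 protein coding genes, 56.6% of such windows held AATAAA, 15.2% held ATTAAA and 69.6% held at least 1 of them.

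The genes differ widely in size, and the authors counted reads in introns and exons together. SMG6 spans 244 kb (chromosome 17, 2059839 to 2303785), longer than 94.4% of protein coding genes, and 97.6% of its canonical transcript unit is intron. UPF2 (chromosome 10, 11920022 to 12043170) spans 123 kb and SMG1 (chromosome 16, 18804860 to 18926408) spans 122 kb. SMG8 (chromosome 17, 59209400 to 59215239) spans 5.84 kb with 4 exons, and introns make up 38.0% of its transcript unit. The remaining genes lie between 19.0 and 36.3 kb, around the median of 27.4 kb for protein coding genes. They are UPF1 (chromosome 19, 18831959 to 18868230), UPF3A (chromosome 13, 114281601 to 114305817), UPF3B (chromosome X, 119834022 to 119852998), SMG5 (chromosome 1, 156249224 to 156282825) and SMG9 (chromosome 19, 43727983 to 43754962). Features known to mark messages for the pathway were not shared by all 9. The 3′ untranslated region was 4709 bases in SMG1, 3613 in SMG9, 1713 in UPF1 and 1649 in SMG6, against 228 in SMG8 and a median of 1018 over protein coding genes. UPF2, SMG1, SMG5 and SMG9 each had 1 ATG upstream of the main reading frame, a feature held by 41.5% of protein coding genes. The annotation lists a transcript subject to the decay pathway in 4 of the 9 genes (UPF1, SMG1, SMG8 and SMG9), against 39.0% of protein coding genes.

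In Input, per kb of the gene length given by the authors, the level of SMG5, an adaptor of the decay step, was highest. It was 1893 ± 187 normalised reads per kb (SD, n = 3), and its 3 libraries lay above those of every other member. SMG6 (861 ± 33.2), UPF1 (786 ± 55.1), UPF2 (774 ± 66.4) and UPF3B (708 ± 48.6) followed, and each overlapped its neighbour in that order. SMG1 had 543 ± 64.7 normalised reads per kb, and SMG8 (312 ± 62.0) overlapped UPF3A (275 ± 21.4). SMG9 was lowest, at 207 ± 1.67. Reads in introns are part of these counts, while the lengths used are shorter than the gene spans. They exceed those of the canonical transcripts unevenly, with 5755 against 2370 bases in UPF3A and 5881 against 5168 in UPF2. How far introns and the choice of length set the order was not tested.

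**Figure D1:**
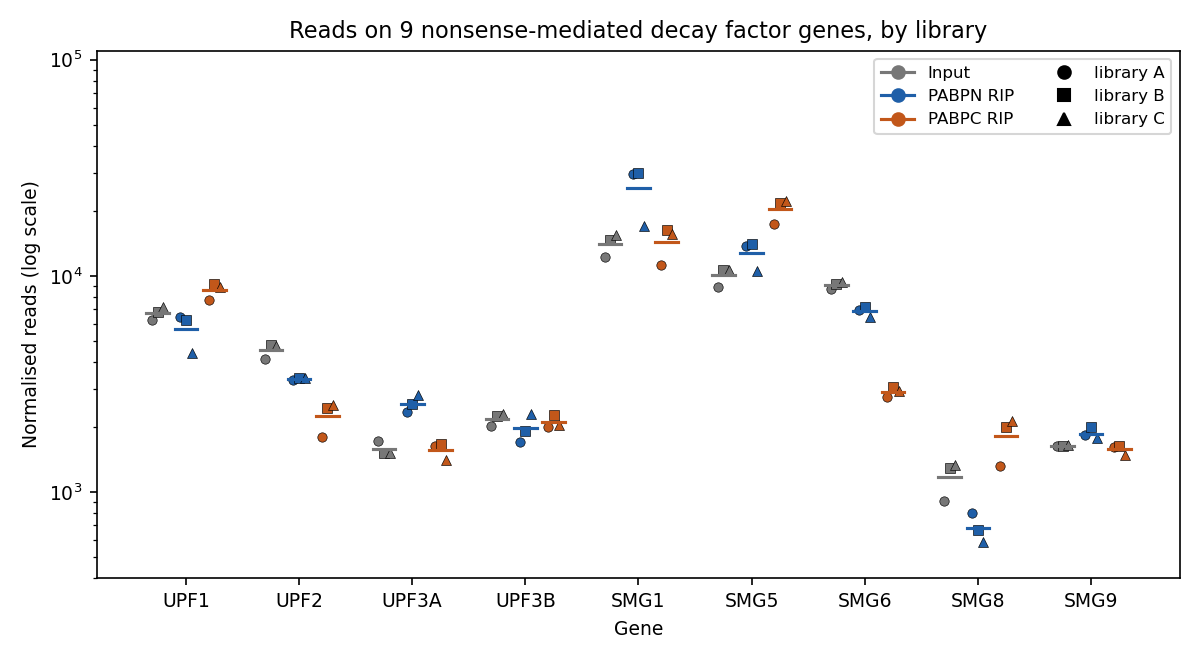
Normalised reads (log scale) on each of the 9 genes; grey, blue and orange stand for Input, PABPN RIP and PABPC RIP, symbols for the libraries A, B and C, and bars for the mean of 3. SMG6 falls from a mean of 9098 in Input to 2910 in PABPC RIP, and SMG1 rises to 29433 and 29825 in 2 PABPN RIP libraries but to 17060 in the third.

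A library of each group stood apart from the other 2 over all genes, namely Input A, PABPN RIP C and PABPC RIP A. Its median absolute log2 difference from them was 0.188, 0.207 and 0.252 in the 3 groups, against 0.097 to 0.148 for the other libraries. In those 3 libraries 5 of the 9 messages (UPF1, SMG1, SMG5, SMG6 and SMG8) were at the lowest level of their group. This was not limited to the 9 messages. Of 16 other factors of the pathway, 9 were also lowest there and 7 were mixed. The share of all genes at their lowest level in those 3 libraries was not counted. ASNS, asparagine synthetase, was at its highest there, with 7392, 6117 and 10637 normalised reads against 2214 to 4229 in the other libraries. GADD45A, ATF3 and DDIT3, stress-response messages like ASNS, were highest in the same libraries, and these 4 were chosen after their values were seen. Of 12 messages described as targets of the pathway, these 4 were highest there. TBL2, SNHG12 and PANK2 were lowest, and 5 were mixed, among them the stress-response message ATF4. Whether the 3 libraries came from the same lysate was not determined. The log2 changes of the 9 messages are also given without these 3 libraries, with 2 libraries a group. Since the libraries left out were those farthest from their group, the spread among the remaining ones is smaller by construction, and no p is given for these values.

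Counts are read against the share of all genes called, since the RIPs moved many genes. A gene was called with an adjusted p of at most 0.01 from limma and a log2 change beyond 0.5. In PABPN RIP over Input, 2 members were higher (background 11.5% of 15187 genes) and 1 was lower (22.4%). PABPC RIP over Input gave 1 higher (40.0% of 15045 genes) and 2 lower (30.7%). In the direct comparison of PABPN RIP with PABPC RIP, 4 were higher (31.4% of 15082 genes) and 3 were lower (40.7%). In all, 3 of 9 were called with PABPN, 3 of 9 with PABPC and 7 of 9 in the direct comparison. The median log2 change of the members was -0.16 with PABPN and -0.02 with PABPC, beside -0.21 and 0.20 over all genes tested. It was 0.24 in the direct comparison, beside -0.17 over all genes.

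The scaling of the libraries sets where 0 lies. Scaling by total reads moved the median of all genes tested from -0.21 to 0.10 with PABPN, from 0.20 to -0.04 with PABPC and from -0.17 to 0.40 in the direct comparison. Higher genes made up 34.0% of PABPN calls (68.9% with total reads), 56.6% of PABPC calls (47.4%) and 43.6% of direct calls (62.4%). Each change given is relative to the 0 set by the scaling, not to that median. Calls of the 9 members that move with the scaling are named, and for the other lists only counts are given. Both comparisons with Input use the same 3 Input libraries and are not independent, and in RNA from whole lysate fewer molecules per cell and fewer cells holding them cannot be told apart.

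**Figure D2:**
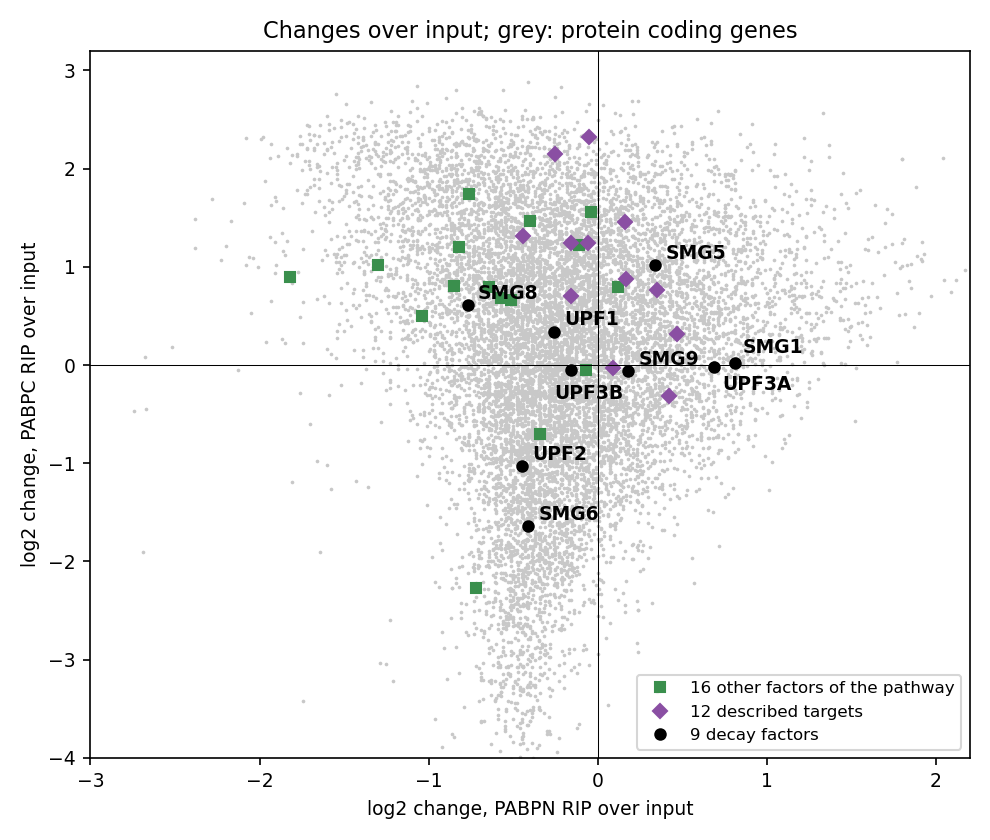
The log2 change over Input with PABPN (horizontal) against that with PABPC (vertical), from limma on 3 libraries a group, for 12462 protein coding genes (grey; 97 lie outside the axes) and the named lists. SMG6 and UPF2 sit low with PABPC, SMG1 and UPF3A lie to the right near 0 on the PABPC axis, and SMG5 is above 0 on both.

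SMG6, the nuclease that cuts the message near the premature stop, had the largest change with PABPC among the 9. Input libraries A, B and C had 8710, 9192 and 9392 normalised reads. PABPN RIP had 6967, 7176 and 6437. PABPC RIP had 2757, 3051 and 2922. No 2 groups overlapped. SMG6 was 3.13-fold depleted with PABPC (log2 change -1.64 ± 0.08 SE, adjusted p = 1.08e-08). With PABPN the log2 change was -0.41 ± 0.08, inside the cut-off of 0.5, and with total-read scaling it was -0.10. The direct comparison put SMG6 2.36-fold higher with PABPN than with PABPC (log2 1.24 ± 0.08, adjusted p = 7.78e-08). Without the 3 libraries that stood apart the log2 changes were -0.42 with PABPN, -1.65 with PABPC and 1.24 in the direct comparison. GENCODE release 44 annotates 14 other genes inside or across the SMG6 span, SRR and HIC1 among them. It also annotates 1 each for SMG8 (protein coding), SMG1 (a long noncoding RNA) and UPF2 (a small nuclear RNA). The authors left stretches shared by genes out of their annotation, and which of these genes it held was not examined.

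UPF2, the bridge between UPF1 and UPF3, was depleted with PABPC as well. Input A, B and C had 4102, 4807 and 4748 normalised reads, PABPN RIP 3280, 3350 and 3373, and PABPC RIP 1793, 2450 and 2515. The groups were again separate. The change with PABPC was a 2.04-fold depletion (log2 -1.03 ± 0.13, adjusted p = 1.51e-05). With PABPN the log2 change was -0.45 ± 0.13 (adjusted p = 0.0114), which missed both cut-offs. In the direct comparison UPF2 was 1.5-fold higher with PABPN (log2 0.58 ± 0.13, adjusted p = 0.0012). Without PABPC RIP A this was 0.43, inside the log2 cut-off. Without the 3 libraries that stood apart the log2 changes were -0.55 with PABPN, past the cut-off, -0.96 with PABPC and 0.41 in the direct comparison, inside it.

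SMG1, the kinase of UPF1, had the most reads of the 9 in Input. Its normalised reads were 12225, 14582 and 15473 in Input and 29433, 29825 and 17060 in PABPN RIP. PABPC RIP had 11157, 16295 and 15670. Every PABPN RIP library was above every other library, with library C far below A and B, while Input and PABPC RIP overlapped. SMG1 was 1.76-fold enriched with PABPN (log2 0.81 ± 0.22, adjusted p = 0.00806), higher than 95% of protein coding genes, and the log2 change was 1.12 with total-read scaling. The call passed narrowly. It was lost on leaving out any single library of the comparison other than PABPN RIP C (log2 0.65 to 0.88) and when the fit held only the 6 libraries compared (adjusted p = 0.0102). With PABPC the log2 change was 0.02 ± 0.22 (95% interval -0.46 to 0.49). The direct comparison gave 0.80 ± 0.22 (adjusted p = 0.00505), and 0.63 to 0.67 with no call on leaving out PABPN RIP A, PABPN RIP B or PABPC RIP A. Without the 3 libraries that stood apart the log2 changes were 0.96 with PABPN, 0.08 with PABPC and 0.88 in the direct comparison.

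SMG1 has near-identical partial copies on chromosome 16, and how reads shared with them were assigned is uncertain. The copies SMG1P1 to SMG1P6 held 28.0% ± 1.09 (SD, n = 3) of the reads on SMG1 and copies together in Input, 18.5% ± 2.93 in PABPN RIP and 7.30% ± 0.774 in PABPC RIP. All 6 copies tested were depleted with PABPC, beside 30.7% of all genes. The largest change was that of SMG1P2 (log2 -2.87 ± 0.14, adjusted p = 1.08e-08), and SMG1P3 changed by -2.30 ± 0.12 (adjusted p = 1.74e-08). None of the 6 was called with PABPN, where 11.5% of all genes were higher and 22.4% lower. With total reads 1 was higher, as with upper-quartile scaling, and 1 was lower without the 3 libraries that stood apart. The copies UPF3AP1 and UPF3AP2 of UPF3A had at most 3 reads in any library.

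UPF3A, which binds the exon junction complex and has been described both as a weak helper and as a brake of the pathway, was enriched with PABPN. Input had 1727, 1511 and 1515 normalised reads and PABPN RIP had 2333, 2539 and 2804. PABPC RIP had 1631, 1667 and 1400. All PABPN RIP libraries were above all others, and Input and PABPC RIP overlapped. The enrichment with PABPN was 1.61-fold (log2 0.69 ± 0.11, adjusted p = 0.000273), and the call held on leaving out each library of the comparison in turn (log2 0.59 to 0.74) and under every scaling tried. With PABPC the log2 change was -0.02 ± 0.11 (95% interval -0.25 to 0.21). UPF3A was 1.63-fold higher with PABPN in the direct comparison (log2 0.71 ± 0.11, adjusted p = 6.46e-05). With 2 libraries a group the log2 change was 0.66 both over Input with PABPN and in the direct comparison.

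UPF3B, its X-linked relative and the main form in the junction complex, was not called in any comparison. It had 2011, 2252 and 2285 normalised reads in Input and 1695, 1908 and 2299 in PABPN RIP. PABPC RIP had 1999, 2266 and 2041. The 3 groups overlapped. The log2 change was -0.16 ± 0.12 with PABPN (95% interval -0.41 to 0.10) and -0.05 ± 0.12 with PABPC (-0.31 to 0.20). With 2 libraries a group these were -0.36 and -0.09, and the direct difference, -0.10 ± 0.12 with 3, was -0.26. Within a library, where scaling cancels, the reads on UPF3A over those on UPF3B had a ratio of 0.731 ± 0.111 in Input (SD, n = 3), 1.31 ± 0.0805 in PABPN RIP and 0.746 ± 0.0659 in PABPC RIP. The PABPN RIP ratios, from 1.22 to 1.38, were above all others.

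SMG5, which joins phosphorylated UPF1 to the phosphatase and decay enzymes, was the only one of the 9 enriched with PABPC. Input A, B and C had 8896, 10608 and 10620 normalised reads. In PABPN RIP the libraries had 13765, 13963 and 10538, of which library C lay within the Input range. PABPC RIP had 17289, 21767 and 22219, above both other groups. SMG5 was 2.03-fold enriched with PABPC (log2 1.02 ± 0.14, adjusted p = 3.79e-05), with 0.93 to 1.17 on leaving out each library. With PABPN the log2 change was 0.34 ± 0.14 (adjusted p = 0.0597), and it passed the cut-offs with total reads (0.65), upper-quartile scaling (0.60) and centring on the median gene (0.55). The direct comparison gave a 1.60-fold lower level with PABPN (log2 -0.68 ± 0.14, adjusted p = 0.00082), a call lost with total reads (-0.13) and with upper-quartile scaling (-0.27). With 2 libraries a group the log2 changes were 0.36 with PABPN, 1.04 with PABPC and -0.67 in the direct comparison. Set against SMG6 within a library, SMG5 had 1.10 ± 0.0708 times as many reads in Input, 1.85 ± 0.187 times in PABPN RIP and 7 ± 0.675 times in PABPC RIP (SD, n = 3). The ratio of reads on these genes, introns included, thus differed between the groups whatever the scaling. Introns made up 97.6% of the SMG6 transcript unit and 86.4% of that of SMG5, and the part of intronic reads in this ratio was not tested.

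SMG8, which restrains SMG1, was the shortest gene and the only member depleted with PABPN. It had 905, 1284 and 1329 normalised reads in Input and 797, 665 and 588 in PABPN RIP. PABPC RIP had 1312, 1988 and 2125. Every PABPN RIP library was below every other library, and PABPC RIP A lay within the Input range. The depletion with PABPN was 1.70-fold (log2 -0.77 ± 0.20, adjusted p = 0.00734). This call was lost with total reads (-0.46), upper-quartile scaling (-0.51), size factors of the 6 libraries compared (-0.60) and centring (-0.56), and on leaving out Input B, Input C, PABPN RIP B or PABPN RIP C (-0.78 to -0.67). With PABPC it was 0.61 ± 0.20 (adjusted p = 0.0146), not called. It passed without PABPC RIP A (0.87, adjusted p = 0.000981) and without the 3 libraries that stood apart (0.64). The difference between the RIPs was 2.61-fold (log2 -1.38 ± 0.20, adjusted p = 5.49e-05), a call that held under total reads (-0.83) and upper-quartile scaling (-0.97). With 2 libraries a group the log2 change was -0.86 with PABPN and -1.50 in the direct comparison.

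SMG9, the partner of SMG8 in the kinase complex, had the narrowest range of the 9 in Input. Input libraries had 1628, 1632 and 1652 normalised reads, PABPN RIP 1826, 1986 and 1776, and PABPC RIP 1617, 1628 and 1486. PABPN RIP lay above both other groups by a small step. The log2 change was 0.18 ± 0.08 with PABPN (95% interval 0.00 to 0.36) and -0.06 ± 0.08 with PABPC (-0.24 to 0.12), and the difference between the RIPs was 0.24 ± 0.08 (adjusted p = 0.0176). None was called, although the direct difference passed with total reads (0.79) and upper-quartile scaling (0.65). With 2 libraries a group the log2 changes were 0.19, -0.09 and 0.28.

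UPF1, the helicase at the core of the pathway, was not called with either protein over Input. Input had 6229, 6817 and 7163 normalised reads and PABPN RIP had 6450, 6263 and 4373. PABPC RIP had 7701, 9115 and 8864, above all other libraries, while PABPN RIP C was the lowest of all. Over Input the log2 change was -0.26 ± 0.14 with PABPN (adjusted p = 0.141), of opposite sign with total reads (0.05), and 0.34 ± 0.14 with PABPC (adjusted p = 0.0433). In the direct comparison UPF1 was 1.52-fold lower with PABPN (log2 -0.61 ± 0.14, adjusted p = 0.00211). That call was lost without PABPN RIP C (-0.42), with total reads (-0.06), with upper-quartile scaling (-0.19) and after centring (-0.43). With 2 libraries a group the log2 changes were -0.16 with PABPN, 0.35 with PABPC and -0.51 in the direct comparison.

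**Figure D3:**
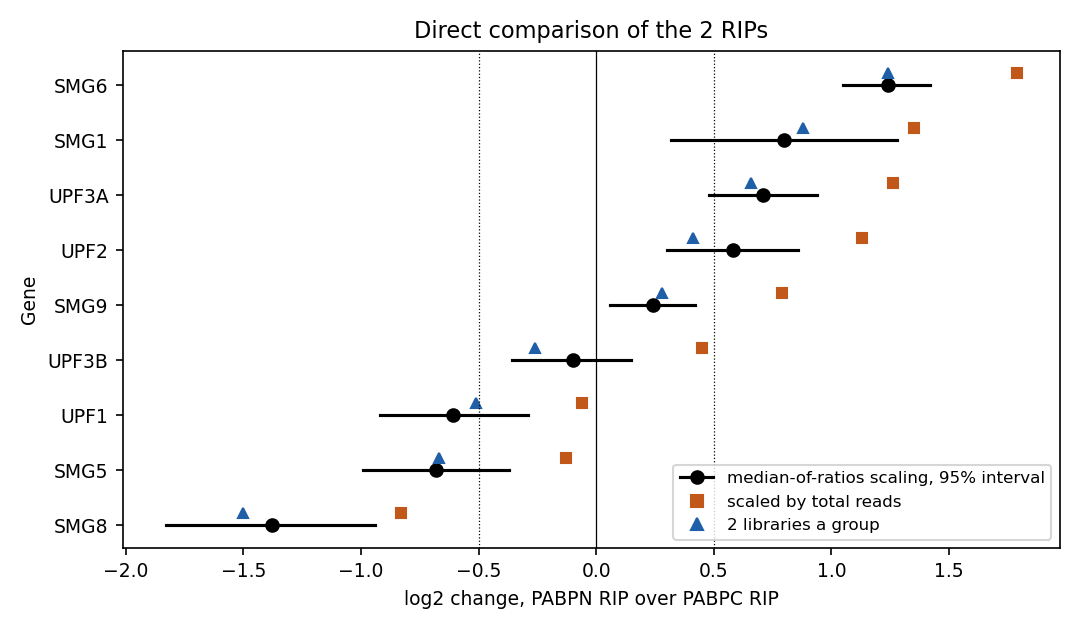
The log2 change of PABPN RIP over PABPC RIP for each gene with its 95% interval (black, limma, 3 libraries a group), the same with libraries scaled by total reads (orange) and with 2 libraries a group (blue); dotted lines mark 0.5 on either side. SMG6, SMG1, UPF3A and UPF2 are higher with PABPN and SMG8 is lower under both scalings. With total reads SMG5 and UPF1 move close to 0, whereas SMG9 moves above 0.5 and UPF3B turns positive.

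By groups that did not overlap, 3 of the 9 messages were higher in every PABPN RIP than in every Input library (background 20.7%) and 3 were lower (45.2%). For PABPC RIP these counts were 2 (47.0%) and 2 (37.0%), and for PABPN RIP over PABPC RIP they were 5 (37.4%) and 3 (46.3%).

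The changes of protein coding genes with PABPC fell from short to long genes, and the members are set beside their length class. Genes above 100 kb had a median log2 change of -1.20 with PABPC (n = 2873, of which 75.8% were depleted), genes from 10 to 100 kb had 0.43 (n = 7661) and genes of 10 kb or less had 1.62 (n = 2110, 88.4% enriched). SMG6 at -1.64 and UPF2 at -1.03 were near the median of the long class, whereas SMG1, nearly as long as UPF2, was at 0.02. The canonical transcript had 16062 bases in SMG1 and 5168 in UPF2, with introns making up 86.8% and 95.8% of the transcript unit. SMG8 at 0.61 was below the median of the short class. Of the members between 10 and 100 kb, SMG5 was above the class median, and UPF1, UPF3A, UPF3B and SMG9 were below it. With PABPN the medians of the 3 classes were -0.38, -0.18 and -0.19, and only 1.54% of genes above 100 kb were enriched. SMG1 was 1 of them, by the narrow call described above and with uncertain assignment of reads shared with its copies. How far reads in introns enter each value was not tested, since intronic and exonic reads were deposited as a single sum.

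**Figure D4:**
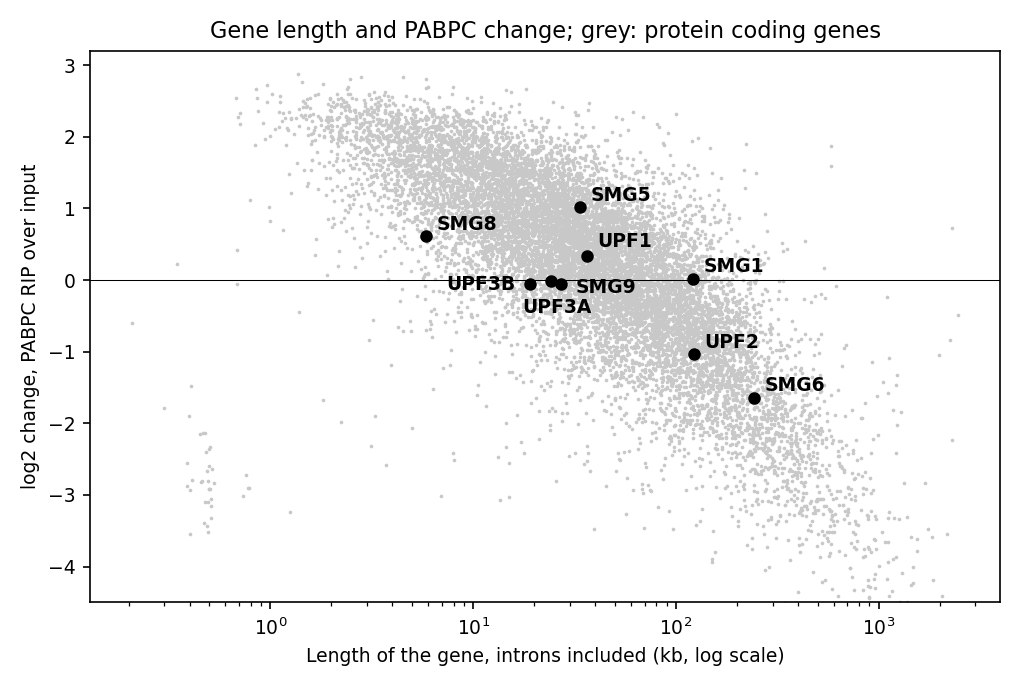
Length of the gene with introns (kb, log scale) against the log2 change of PABPC RIP over Input for 12453 protein coding genes (grey; 10 lie below the axis) and the 9 members (black). SMG6 (244 kb, -1.64) and UPF2 (123 kb, -1.03) follow the downward course of the cloud, and SMG1 (122 kb, 0.02) lies above it.

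Among the members, UPF3A and SMG1 had the most similar pair of changes over Input, 0.128 log2 units apart in the plane of both changes, and SMG5 and SMG6 the least similar, 2.77 apart. Over 12427 protein coding genes outside the named lists, the gene nearest to UPF3A was POLM, at 0.69 with PABPN and -0.02 with PABPC. The nearest to SMG1 was NUDT13 (0.82 and 0.03), to SMG5 ING4 (0.34 and 1.03), to SMG6 SYNDIG1 (-0.42 and -1.63) and to UPF2 ARMC9 (-0.45 and -1.02). GALM lay nearest to UPF1 (-0.27 and 0.34), TIMP3 to SMG8 (-0.76 and 0.62), XPO1 to UPF3B (-0.15 and -0.06) and INSYN2A to SMG9 (0.19 and -0.05).

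Of 16 other factors of the pathway, 10 were depleted with PABPN, beside 22.4% of all genes, and none was enriched, beside 11.5% (5 and none with total reads), with a median log2 change of -0.60. With PABPC, 12 were enriched, beside 40.0% of all genes, and 2 were depleted, beside 30.7%, with a median of 0.80 (10 and 2 with total reads). In the direct comparison 13 were lower with PABPN, beside 40.7%, and 1 was higher, beside 31.4% (12 and 3 with total reads). Without the 3 libraries that stood apart 10 were depleted with PABPN, 13 were enriched with PABPC and 13 were lower in the direct comparison. EIF4A3, the helicase of the exon junction complex, had a mean of 3151 normalised reads in Input, 890 in PABPN RIP and 5870 in PABPC RIP (log2 change -1.82 ± 0.15 with PABPN and 0.90 ± 0.15 with PABPC). RBM8A, which binds RNA-bound EIF4A3 in that complex, changed by -0.76 ± 0.13 and 1.74 ± 0.13, and CASC3 by -0.11 ± 0.09, not called, and 1.22 ± 0.09. ETF1, the release factor that reads stop codons, changed by -0.82 ± 0.16 and 1.20 ± 0.16. NBAS, another factor that acts with UPF1 on autoregulated messages, was depleted from both with median-of-ratios scaling (-0.72 ± 0.09 and -2.27 ± 0.09). It was the 1 that was higher with PABPN in the direct comparison. Which of the 16 lost their PABPN call with total reads is not given by gene.

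Of the 12 messages widely described as targets of the pathway, none was called with PABPN (3 higher with total reads and 1 without the 3 libraries that stood apart). With PABPC 7 were enriched, beside 40.0% of all genes, with a median log2 change of 1.06 (6 higher and 1 lower with total reads, 9 higher without the 3 libraries). ATF4, a stress transcription factor with upstream reading frames, rose from a mean of 6588 in Input to 33093 in PABPC RIP (log2 2.32 ± 0.17, adjusted p = 1.82e-07). CDKN1A, a cell cycle inhibitor, was 4.44-fold enriched with PABPC (log2 2.15 ± 0.11) and GADD45A, a DNA damage message, 2.36-fold (log2 1.24 ± 0.14). In the direct comparison 6 of the 12 were lower with PABPN, beside 40.7% of all genes, and 1 was higher, beside 31.4% (5 and 3 with total reads). The 1 that was higher was the snoRNA host SNHG12 (log2 0.74 ± 0.13, adjusted p = 0.000255), which changed by -0.32 ± 0.13 with PABPC, not called.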

How the data were processed

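Groups were taken from the sample titles. Per the methods of the study, the authors aligned reads of 75 nt to hg38 with STAR and counted introns and exons together with featureCounts 2.0.2 (minimum overlap 20 bases), without stretches shared by genes or genes entered by upstream transcription. The authors deposited a signal column (baseMean), the mean over 6 libraries of reads divided by DESeq2 size factors, in each of 2 comparison tables. The deposited log2 columns hold the fold change of each comparison and its standard error, as the authors fitted them; Wald statistics and p-values were not used.

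Whole reads per library were rebuilt from baseMean, a sum of whole reads times 6 known steps. The 3 libraries shared by both comparisons are Input. The deposited fold change and standard error served only to single out the whole-read solution and are not reported. Reads were rebuilt for 36020 of 36049 genes with a fold change in both (99.9%), each with 1 solution, with a largest discrepancy of 2.1e-14 against a tolerance of 1e-09. The other 29 are among the genes with most reads.

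Reads were scaled by median-of-ratios size factors over 9 libraries. log2(normalised reads + 1) was tested in limma 3.58.1 (R 4.3.3; eBayes with trend, 1 fit over 9 libraries, two-sided), with Benjamini-Hochberg adjustment over genes with a mean above 50 in the libraries compared, so fold changes are on that scale. Rebuilding and fit were tested on simulated data. Members and lists were chosen with earlier results of these data known. Named by rule were the 9 members and the pseudogenes of SMG1 and UPF3A. So was, for each member, the protein coding gene nearest to it in the plane of both changes over Input. The 16 other factors were DHX34, NBAS, RUVBL1, RUVBL2, GSPT1, ETF1, EIF4A3, RBM8A, MAGOH, MAGOHB, CASC3, RNPS1, PYM1, PNRC2, DCP2 and XRN1. Of these, EIF4A3, RBM8A, CASC3, ETF1 and NBAS were given by value. They are a selection, since others of the 16 also passed the cut-offs. Values were given for up to 5 of 12 targets (GADD45A, GADD45B, ATF4, ATF3, DDIT3, TBL2, GAS5, SNHG12, ASNS, CDKN1A, PANK2 and ARFRP1). Another factor of the pathway is not reported here. NEFM and HBB, also listed as markers, are not analysed here. Alternatives were other scalings, filters and a pseudocount of 5, voom weights, only the 6 libraries compared, centring, a log2 cut-off of 1 and leaving out each library. Size factors of the 6 libraries compared, and leaving out the farthest library of each group, were chosen after seeing the data.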

Additional observations from a re-analysis of the deposited data

Results flagged for a closer look

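The changes over Input with PABPN and with PABPC differed for 7 of the 9 messages by the direct test of PABPN RIP against PABPC RIP (limma, 3 libraries a group). Of all genes tested 31.4% were higher and 40.7% lower in that comparison, so the share of members is near that of all genes. The log2 difference was 1.24 for SMG6, 0.80 for SMG1, 0.71 for UPF3A and 0.58 for UPF2, which were higher with PABPN. It was -1.38 for SMG8, -0.68 for SMG5 and -0.61 for UPF1, which were lower; with total reads SMG5 (-0.13) and UPF1 (-0.06) were not called. Among the other named genes it was -2.72 for EIF4A3, -2.50 for RBM8A, -2.02 for ETF1, -1.33 for CASC3 and 1.55 for NBAS. The targets ATF4, CDKN1A, GADD45A and SNHG12 differed by -2.38, -2.40, -1.29 and 0.74, and the copies SMG1P2 and SMG1P3 by 2.85 and 2.56. Groups of 3 are too small for a test of single outlying samples.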

How the results depend on the processing

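No paired analysis was possible because the rebuilt libraries carry no replicate number. With a log2 cut-off of 1, PABPN RIP over Input gave 1545 genes and 0 members, against 5154 genes and 3 members at 0.5, and PABPN RIP over PABPC RIP gave 2 members, against 7. Leaving out each library gave 1 to 3 members with PABPN, 3 to 4 with PABPC and 5 to 7 in the direct comparison. Input B, Input C or PABPN RIP B left out brought the PABPN count to 1. Calls over all genes stayed within 1.5 times the main count under the other alternatives, from 4135 to 6109 with PABPN.

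Signs turned only for changes that were not called. With PABPN, UPF1 had 0.05 with total reads and 0.00 with the upper quartile, and UPF3B had 0.15, 0.10, 0.01 with size factors of the 6 libraries and 0.05 after centring. With PABPC, SMG1 had -0.23, -0.14, -0.07 and -0.19 under the same 4 settings and -0.09 to 0.22 on leaving out a library. Leaving out a library also turned UPF3A (-0.05 to 0.12), UPF3B (-0.12 to 0.02) and SMG9 (-0.06 to 0.04). In the direct comparison UPF3B had 0.45 with total reads, 0.31 with the upper quartile, 0.07 after centring and -0.21 to 0.00 on leaving out a library. The split of PABPN calls into higher and lower was 1751 and 3403, 3105 and 1400 with total reads, 2786 and 1572 with the upper quartile, 2456 and 2000 with size factors of the 6 libraries and 2635 and 1735 after centring. That of PABPC calls was 6025 and 4620, 4814 and 5344 with total reads, and 5115 and 5323 after centring. That of direct calls was 4739 and 6133, 6903 and 4157 with total reads, and 6287 and 4587 with the upper quartile. The cause of these shifts was not tested. The members had at least 588 normalised reads in each library, and 3 libraries a group limit the precision.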
